A study of Homo sapiens with 8 samples.

Results

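The broad H3K27me3 domains of SUDHL6 were the 607 autosomal islands of the SUDHL6 H3K27me3 list that were at least 10 kb wide, out of 13117 autosomal islands. Width, the value that chose them, is described here without a test. SUDHL6 and HT are established human lines of diffuse large B cell lymphoma, both grown untreated in serum-supplemented RPMI medium. ChIP-seq (chromatin immunoprecipitation followed by sequencing) was done in each line for H3K27me3, EZH2 and H3K4me3, with 1 library per line and antibody, and the authors deposited 1 list of enriched islands on hg19 per library. The lists held 13117 H3K27me3, 1500 EZH2 and 13281 H3K4me3 islands on the autosomes of SUDHL6, and 16851, 2508 and 10593 on those of HT. The sources used here give no read depth, and no comparison has a replicate check. Shares of domains carry 95% intervals by the exact Clopper-Pearson method, for counting error alone.

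Trimethylation of lysine 27 of histone H3 (H3K27me3) is written by Polycomb repressive complex 2, whose catalytic subunit is EZH2. It marks repressed chromatin and can spread from sites where the complex is recruited into domains far wider than a promoter. Trimethylation of lysine 4 (H3K4me3) marks active and poised promoters. In germinal centre B cells EZH2 holds differentiation genes silent, and SUDHL6 is known to carry a mutant EZH2 with raised trimethylating activity.

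The domains were a small part of the islands and a larger part of the marked length. They made up 4.63% of the islands, 17.2% of the H3K27me3 length (8.80 of 51.2 Mb) and 19.8% of the summed score, the authors' own whole number per island, which is used here only within its list. Widths ran from 10.05 to 49.35 kb with a median of 12.75 kb, and 66 domains were 20 kb or wider. The score per kb had a median of 23.3 in the domains, with a range from 15.02 to 41.5, and a median of 20 in the 12510 narrower islands. Among the domains the score per kb was slightly higher with greater width (Pearson r = 0.34, Spearman rho = 0.28 over 607 domains). These values come from the same list as the widths and are a description only. The 68 domains nearest the limit, of 10050 to 10350 bp, had a median score per kb of 22.8, and 30.9% of them held EZH2. The 88 islands just below it, of 9600 to 9900 bp, had a median of 20.6, and 17.0% of them held EZH2.

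**Figure D1:**
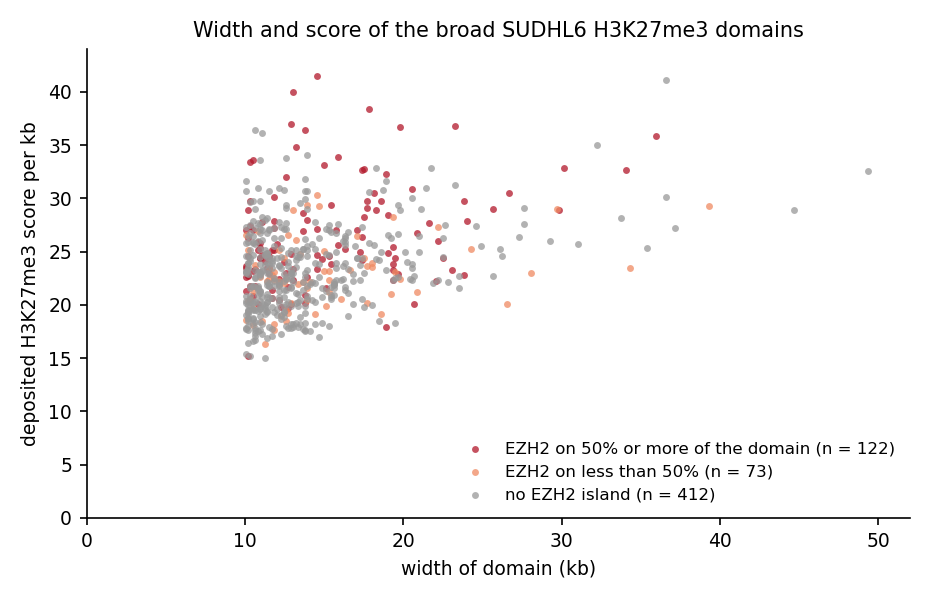
Width (kb) and deposited H3K27me3 score per kb of the 607 broad SUDHL6 domains, 1 point per domain, coloured by the share of the domain under SUDHL6 EZH2. The 122 domains covered to 50% or more by EZH2 had a median score per kb of 25.2, and the 412 without EZH2 a median of 22.9, with wide overlap between them.

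EZH2 of SUDHL6 covered more of the domains than of the narrower islands. It lay on 20.8% of the bases of the domains and on 7.11% of those of the narrower islands. Over the whole autosomes, measured to the last island of any list, it lay on 0.304%. An EZH2 island was met by 195 of 607 domains (32.1%, 28.4 to 36.0%), against a background of 9.45% over all autosomal islands. A wide island meets others more often by its width alone, so the share of bases is given beside it. By that measure too, cover was higher in the wider classes. It was 4.51% below 2.5 kb, 5.96% from 2.5 to 5 kb and 9.61% from 5 to 10 kb. Among the domains it was 16.7% from 10 to 12 kb, 16.9% from 12 to 15 kb, 26.5% from 15 to 20 kb and 25.1% at 20 kb or wider. The difference was of like size without chromosome 6, where EZH2 lay on 22.99% of the bases of the domains and 7.25% of those of the narrower islands.

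**Figure D2:**
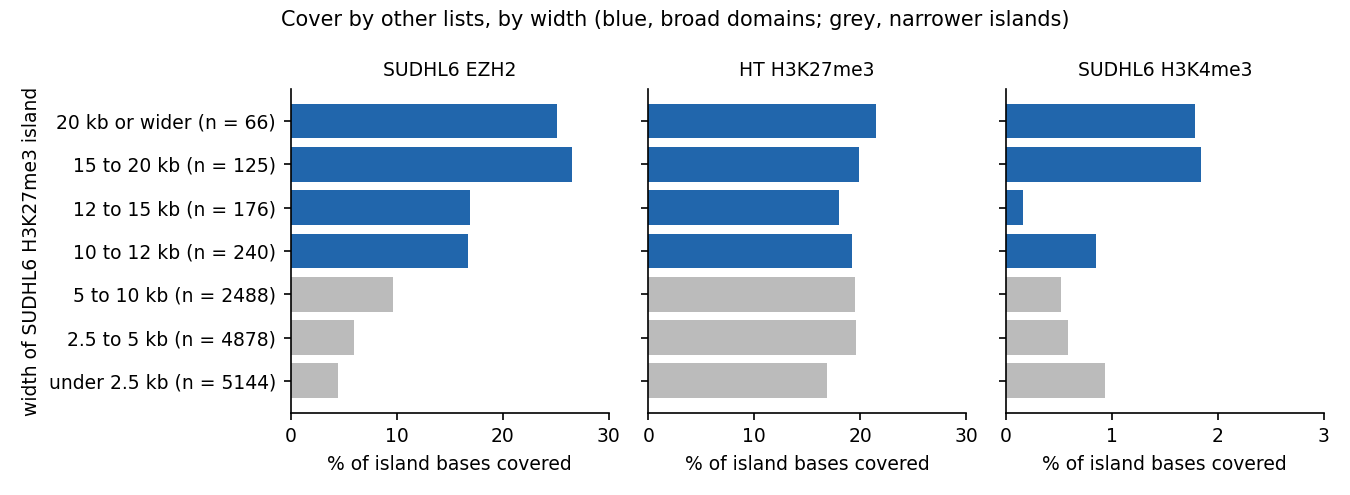
Share of the bases of SUDHL6 H3K27me3 islands covered by SUDHL6 EZH2, HT H3K27me3 and SUDHL6 H3K4me3 (% of bases, a narrower axis for H3K4me3), by width of the island, with the number of islands in each class. EZH2 cover ran from 4.51% in the narrowest class to 26.5% at 15 to 20 kb, whereas HT H3K27me3 stayed between 16.9 and 21.5%.

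Where EZH2 was present it covered much of the domain. The median cover in the 195 domains was 61.3%. Where EZH2 was present it was 77.1% over all islands and 64.8% in islands of 5 to 10 kb, so the domains were not above these. Cover reached 50% or more in 122 domains (20.1%, background 6.79%) and 90% or more in 45 (background 3.68%). Of the 195 domains, 167 met 1 EZH2 island, 26 met 2 and 2 met 3. The remaining 412 domains, 67.9% of all, met no EZH2 island. Since depth is unknown, EZH2 below the calling limit may be present in these. The EZH2 islands in the domains were wide for their list, with a median of 9150 bp for the 212 that met a domain and 4500 bp for the whole list. Their median score per kb was 15.7, and that of the whole EZH2 list 13.9. The domains held 20.95% of all EZH2-covered bases, narrower H3K27me3 islands held 34.5%, and 44.6% lay outside H3K27me3.

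Domains with a high H3K27me3 score per kb held more EZH2, although the spread was wide. In the 25% of domains with the highest score per kb, EZH2 met 64 of 152 domains and covered 32.5% of their bases. In the lowest 25% it met 32 of 151 and covered 9.07%. Across the 607 domains, the share under EZH2 and the score per kb had r = 0.32 and rho = 0.23, and the points share the libraries and chromosome segments. HT H3K27me3 had no such order, with 19.6% of bases covered in the highest 25% and 18.4% in the lowest.

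The widest domains were mostly on chromosome 6, and 6 of the widest 10 held no EZH2. Of all domains 67.9% held none, so a lack of EZH2 was not more frequent among the widest 10. The widest spanned 43207651 to 43257000 of chromosome 6 (49.35 kb) with a score per kb of 32.6 and no EZH2. The domain from 33895801 to 33933000 of chromosome 6 (37.2 kb) also held none. So did that from 17012701 to 17049300 of chromosome 1 (36.6 kb), whose score per kb of 41.1 was the second highest of all domains. Others of similar width were filled with EZH2. On chromosome 11, EZH2 covered 97.9% of the domain from 1989451 to 2025450 (36.0 kb) and 95.5% of its neighbour from 2026201 to 2056350 (30.15 kb). The domain from 33126751 to 33150000 of chromosome 6 (23.25 kb) was covered to 97.4%, with a score per kb of 36.8. The highest score per kb of all, 41.5, was that of 1578451 to 1593000 of chromosome 11 (14.55 kb), 90.7% of it under EZH2. The lowest, 15.02, was that of 3774751 to 3786000 of chromosome 4 (11.25 kb), which met no island of any other list.

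EZH2 cover was higher in the inner part of the domains than at and beyond their edges. Bins of 1 kb were laid over both edges of every domain. Cover was 21.5% between 4 and 5 kb inside the edge, 14.9% in the first kb inside, 11.7% in the first kb outside and 8.07% between 9 and 10 kb outside. By share of the width, the outermost 10% on each side had 16.1%, the bin from 30 to 40% of the width 22.98% and the middle bin 22.6%. Of 225 meetings of an EZH2 island with a domain, 86 lay wholly inside the domain, 124 ran past 1 edge and 15 past both. The islands of 5 to 10 kb had the same shape at a lower level, with 8.78% in the first kb inside and 4.81% between 9 and 10 kb outside.

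**Figure D3:**
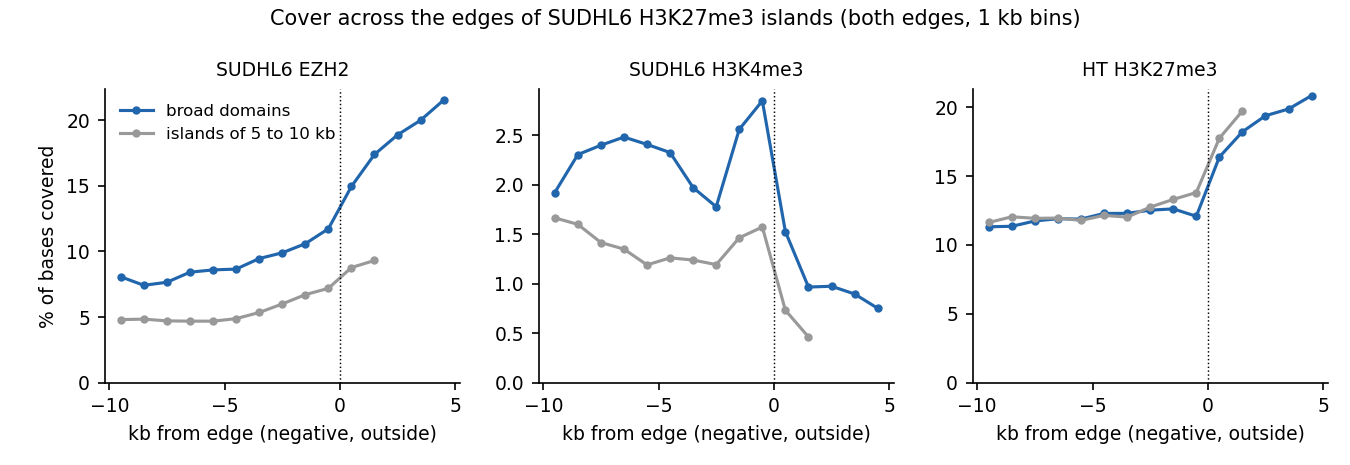
Share of bases covered (%) by SUDHL6 EZH2, SUDHL6 H3K4me3 and HT H3K27me3 in 1 kb bins from 10 kb outside to 5 kb inside both edges of the broad domains, and to 2 kb inside for SUDHL6 H3K27me3 islands of 5 to 10 kb. EZH2 and HT H3K27me3 were higher inside the edge than outside it, and H3K4me3 was lower inside the edge (1.53% in the first kb) than in the first kb outside (2.85%).

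H3K4me3 of SUDHL6 met few of the domains, and most of its islands that met one crossed an edge. It met 28 of 607 domains (4.61%, 3.09 to 6.60%), against a background of 2.47%. In 17 of the 28 it covered at most 10% of the domain, and 17 of the 28 also met EZH2 (2.80% of all domains, background 0.557%). Of the 30 H3K4me3 islands involved, 24 crossed an edge and 6 lay wholly inside. Cover was 2.85% in the first kb outside the edge, 1.53% in the first kb inside and 0.754% between 4 and 5 kb inside. Outside the edge it was 2.30% over the first 5 kb and 1.92% between 9 and 10 kb. The first kb outside was the highest of the 1 kb bins out to 10 kb. Farther out, between 10 and 100 kb, cover in 5 kb bins ran from 2.08% to 3.28%. The first kb outside lay within that range. Over the autosomes H3K4me3 cover was 1.12%, and over the bases of the domains 1.09%. An H3K4me3 island lay inside or within 1 kb of 46 domains (7.58%, background 4.26%) and inside or within 5 kb of 72 (11.9%, background 7.84%). The median distance to the nearest H3K4me3 island was 48.3 kb for the domains and 73.8 kb for narrower islands. It was 36.6 kb for the domains with EZH2 and 55.35 kb for those without.

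The share of bases under H3K4me3, 1.09% in the domains and 0.628% in narrower islands, rested on 2 domains of chromosome 19. They spanned 50613751 to 50643600 (29.85 kb), covered to 100% by H3K4me3 and by EZH2 of both lines, and 48424801 to 48440700 (15.9 kb), covered to 95.3% by H3K4me3 and to 63.2% by SUDHL6 EZH2. HT EZH2 covered 95.3% of the narrower of the pair, and HT H3K27me3 was in neither. Without these 2, a setting chosen after their values were seen, the share in the domains was 0.586%, below that of the narrower islands. Neither region was checked against input.

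Beyond their edges the domains continued into further H3K27me3. Another SUDHL6 H3K27me3 island lay within 5 kb of an edge for 441 of 607 domains (72.7%, 68.9 to 76.2%, background 47.6%) and for 46.4% of the narrower islands. Neighbouring islands are at least 600 bp apart by the way they were called, so cover in the first kb outside was only 7.64%. It was 39.2% between 9 and 10 kb outside, and still 22.5% between 95 and 100 kb outside, where the autosomal level was 1.78%. Around islands of 5 to 10 kb the same values were 27.1% and 15.4%. EZH2 in the flanks was 5.004% between 95 and 100 kb outside the domains and 2.99% around islands of 5 to 10 kb.

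HT H3K27me3 met about 1 in 2 of the domains and covered a minor part of their length. It met 307 of 607 domains (50.6%, 46.5 to 54.6%), against a background of 27.9%. The share of bases under it was 19.5% in the domains and 19.03% in the narrower islands, and 19.5% in islands of 5 to 10 kb, so by length HT covered the domains and the narrower islands nearly alike. The interval of this difference cannot be had from 1 library per line. In the 307 domains HT cover had a median of 32.4%. It reached 50% in 83 domains (13.7%, background 18.8%) and 90% in 9 (background 9.39%). These 2 limits are harder to reach for a wide island. The 448 HT islands that met a domain had a median width of 3900 bp, 2550 bp in the whole HT list, and 293 of them lay wholly inside 1 domain. An HT island of at least 10 kb was met by 34 domains (5.60%, background 2.44%). Of the 370 HT islands of that width, 33 met a SUDHL6 domain (8.92%, and 2.66% of all HT islands). Width alone raises both shares.

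**Figure D4:**
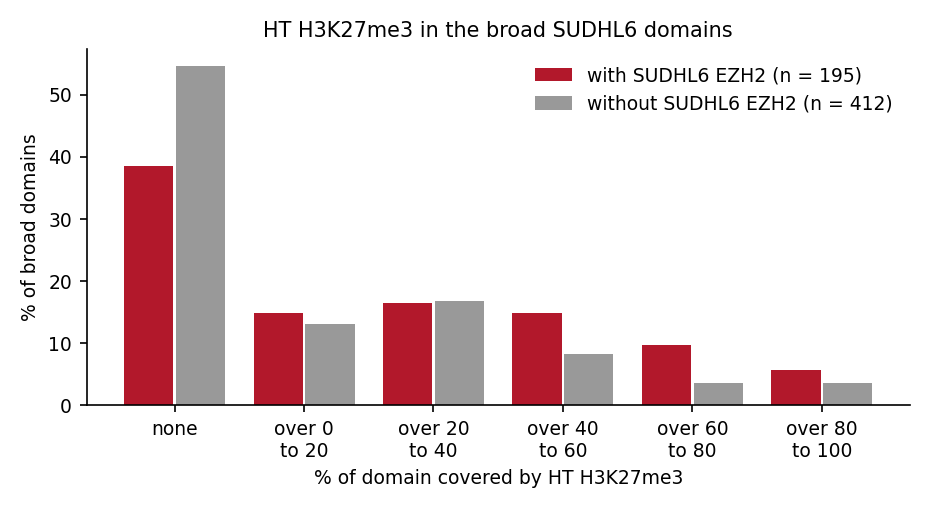
Share of broad SUDHL6 domains (% of each set) by how much of the domain HT H3K27me3 covered, for the 195 domains with SUDHL6 EZH2 and the 412 without. No HT island was met by 38.5% of the domains with EZH2 and by 54.6% of those without.

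Domains with SUDHL6 EZH2 were covered in HT more often. HT H3K27me3 met 120 of the 195 domains with EZH2 (61.5%, 54.3 to 68.4%) and 187 of the 412 without it (45.4%, 40.5 to 50.3%). It lay on 25.02% of the bases of domains with EZH2 and on 16.7% of those without. Both sets differ little in width, with medians of 13.65 kb with EZH2 and 12.45 kb without. EZH2 of SUDHL6 and H3K27me3 of HT were both missing from 225 domains (37.1%, 33.2 to 41.0%), against a background of 67.4%.

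Where HT lacked H3K27me3 in a domain, it seldom had another called mark. HT EZH2 met 46 domains (7.58%, background 4.43%) and HT H3K4me3 met 24 (3.95%, background 2.55%). Of the 300 domains without HT H3K27me3, 13 met HT H3K4me3 (4.33%) and 9 met HT EZH2 (3.0%). The backgrounds for these, over the 9459 islands without HT H3K27me3, were 2.36% and 0.877%. Both shares were above their backgrounds, and wide islands meet others more often by width alone. In all, 282 of 607 domains (46.5%, 42.4 to 50.5%) met no island of any HT list, against a background of 69.9%. The nearest HT H3K27me3 island was a median of 26.5 kb away from the 300 domains, within 10 kb of 83 and over 100 kb from 67. EZH2 was present in both lines in 32 domains (5.27%, background 1.84%).

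The domains most covered in HT were narrower than the widest. HT H3K27me3 covered 100% of 234935701 to 234952050 of chromosome 1 (16.35 kb), which had no EZH2 in either line. It covered 95.7% of 105938551 to 105956100 of chromosome 14 (17.55 kb), where EZH2 covered 97.4% in SUDHL6 and 56.4% in HT. Of the widest domains, that from 33854551 to 33883800 of chromosome 6 (29.25 kb) had 81.0% under HT H3K27me3 and no EZH2. Domains with no HT H3K27me3 included 21299101 to 21331350 of chromosome 17 (32.25 kb) and 2731801 to 2762850 of chromosome 11 (31.05 kb), both also without EZH2.

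The domains were gathered on a few chromosomes. Chromosome 6 held 124 of them (20.4%, and 5.09% of all autosomal islands), chromosome 7 held 78 (12.9%, and 5.95%) and chromosome 11 held 68 (11.2%, and 6.82%). On chromosome 6, 18.6% of the islands were domains, and on chromosome 2 only 1.52%. Chromosome 13 had 147 islands and none of domain width. Of the 370 HT islands of at least 10 kb, chromosome 11 held 36.2%, chromosome 10 held 14.1% and chromosome 6 held 2.16%. On chromosome 11 the lines differed in place. From 0 to 10 Mb there were 44 SUDHL6 domains and 1 of these HT islands. From 110 to 120 Mb there were 2 SUDHL6 domains and 112 of these HT islands.

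**Figure D5:**
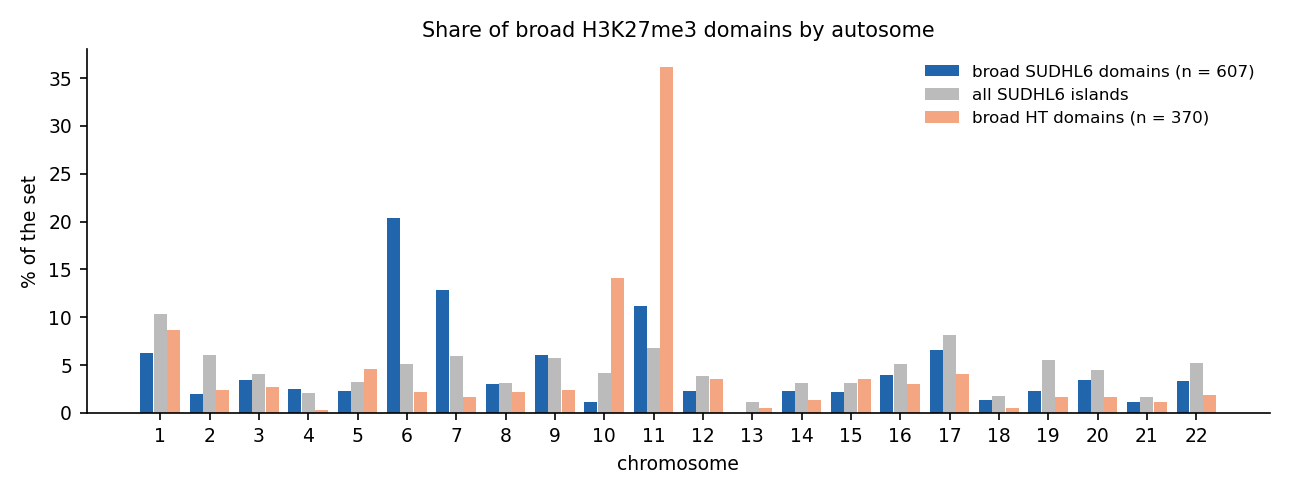
Share (% of each set) of the broad SUDHL6 domains, of all SUDHL6 H3K27me3 islands and of HT H3K27me3 islands of at least 10 kb, by autosome. Chromosome 6 held 20.4% of the broad SUDHL6 domains and 5.09% of all SUDHL6 islands.

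In windows of 10 Mb, the 10 windows with most domains held 270 of 607 (44.5%, 40.5 to 48.5%) and 15.1% of all islands of the list. These windows were chosen by the domains, so this is a description. The 10 windows fullest of islands of any width held 19.7% of those. In HT, 201 of the 370 islands of at least 10 kb (54.3%) lay in their own top 10 windows. The stretch from 30 to 40 Mb of chromosome 6 held 68 domains among 184 islands, 0 to 10 Mb of chromosome 11 held 44 among 169, and 40 to 50 Mb of chromosome 6 held 34 among 128. Between 130 and 140 Mb of chromosome 9, 23 domains stood among 407 islands. EZH2 covered 16.8% of the domain bases at 30 to 40 Mb of chromosome 6, 35.1% at 0 to 10 Mb of chromosome 11, 9.27% at 40 to 50 Mb of chromosome 6 and 41.0% at 130 to 140 Mb of chromosome 9. HT H3K27me3 covered 24.9%, 11.4%, 24.3% and 9.65% there.

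H3K4me3 of SUDHL6 was also more extensive relative to HT over these 10 windows than over all autosomes. The log2 ratio of H3K4me3 length, SUDHL6 over HT, was 0.75 over the 10 windows and 0.37 over all autosomes. Among the 10 windows it ran from -0.34 (60 to 70 Mb of chromosome 20) to 1.45 (0 to 10 Mb of chromosome 6). It was 1.08 at 30 to 40 Mb of chromosome 6, 0.60 at 0 to 10 Mb of chromosome 11 and -0.05 at 130 to 140 Mb of chromosome 9. Over the whole of chromosome 6 it was 0.92. Windows with 1 domain ran from -0.34 (50 to 60 Mb of chromosome 16) to 2.02 (50 to 60 Mb of chromosome 6). Away from chromosome 6 the highest of these was 1.46 (0 to 10 Mb of chromosome 9). The H3K27me3 ratio over the 10 windows was 2.04, against -0.08 over all autosomes. The EZH2 ratio was 1.92 over the 10 windows and -0.32 over all autosomes. Copy number was not measured, and the part in this gathering of what moves H3K4me3 was not tested.

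Many domains stood in short runs. The next domain was a median of 37.1 kb away and lay within 10 kb of 177 domains. With gaps of up to 100 kb, 392 domains (64.6%) fell into 122 clusters, and 50 clusters held 3 or more. The largest ran from 1413601 to 2138100 of chromosome 11, with 15 domains in 724.5 kb, 7 of them with EZH2. The next, from 33692401 to 34131750 of chromosome 6, had 14 domains on 68.1% of its 439.4 kb, and all H3K27me3 islands together covered 73.6% of it. HT H3K27me3 covered 38.1% of the domain bases there and 10.95% in the cluster of chromosome 11. H3K4me3 covered 0.615% of the chromosome 6 cluster, in 1 island. The cluster from 43683301 to 43981800 of chromosome 6 had 11 domains, 1 with EZH2, and that from 1219051 to 1800450 of chromosome 7 had 11, 6 with EZH2. In HT the largest cluster held 32 of the 370 wide islands. By the same rule 208 of the 370 (56.2%) fell into clusters. Clusters of 3 or more held 44.9% of the wide HT islands and 40.9% of the SUDHL6 domains.

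On chromosome 6 fewer domains held EZH2 than on the other chromosomes as a whole. EZH2 met 21 of its 124 domains (16.9%, 10.8 to 24.7%) and 174 of 483 elsewhere (36.0%, 31.7 to 40.5%). It covered 13.7% of domain bases on chromosome 6 and 22.99% elsewhere. Of the domains of chromosome 6, 16 lay in the outer 10 Mb of the chromosome. Among the domains outside such ends, a comparison chosen after the values were seen, the cover was 14.5% on chromosome 6 and 15.4% elsewhere. EZH2 met 20 of 108 of these domains on chromosome 6 (18.5%, 11.7 to 27.1%) and 60 of 221 elsewhere (27.1%, 21.4 to 33.5%). Single chromosomes varied, and on chromosome 2 the share of domains with EZH2 was 16.7%. It was 0 of 7 domains on chromosome 10 and 0 of 8 on chromosome 18. With 3 domains as the upper limit for a count of 0, and not the exact interval, these allow shares of up to 42.9% and 37.5%. Among domains of 20 kb or wider, 8 of 27 on chromosome 6 and 18 of 39 elsewhere met EZH2. HT H3K27me3 met 62.9% (53.8 to 71.4%) of the domains on chromosome 6 and 47.4% (42.9 to 51.97%) elsewhere. Outside the outer 10 Mb these shares were 64.8% and 59.3%, with 23.9% and 25.4% of bases covered. Narrower islands met HT H3K27me3 in 22.5% of cases on chromosome 6 and in 26.98% elsewhere. The median score per kb was 25.5 on chromosome 6 and 22.9 elsewhere. On chromosome 19, EZH2 met 9 of 14 domains.

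Nearly 1 in 2 domains lay near a chromosome end. The outer 10 Mb of the autosomes held 278 of 607 domains (45.8%, 41.8 to 49.9%), against a background of 39.0%, and 38.7% of the narrower islands. In the outer 5 Mb the shares were 40.4% and 26.6%, and in the outer 20 Mb 53.2% and 54.6%, so the order depended on the zone. Without chromosome 6 the outer 10 Mb held 54.2% of the domains and 39.0% of the narrower islands. Of the 66 domains of 20 kb or wider, 36.4% lay there, and 27 of the 66 were on chromosome 6. The HT islands of at least 10 kb had 11.4% (8.30 to 15.03%) in the outer 10 Mb.

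Domains near the ends held more EZH2 and were less covered in HT than those inside the chromosomes. EZH2 met 115 of 278 outer domains (41.4%, 35.5 to 47.4%) and 80 of 329 inner ones (24.3%, 19.8 to 29.3%), and lay on 27.9% and 15.1% of their bases. Without chromosome 6 the inner domains had EZH2 on 15.4% of their bases. Among narrower islands the gap was smaller, with EZH2 on 8.59% of the bases of outer and 6.09% of those of inner islands. HT H3K27me3 lay on 12.9% of the bases of outer and 24.9% of those of inner domains. The narrower islands had nearly the same values, 12.9% in outer and 23.3% in inner ones. Width was alike, with medians of 12.8 kb in outer and 12.75 kb in inner domains.

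Against the broad domains of HT, those of SUDHL6 held more EZH2 of their own line. SUDHL6 EZH2 covered 20.8% of the SUDHL6 domains, and HT EZH2 covered 11.5% of the 370 HT islands of at least 10 kb. Cover of narrower islands was 7.11% in SUDHL6 and 6.96% in HT. The EZH2 list of SUDHL6 was the shorter one, with 8.75 Mb in SUDHL6 and 10.9 Mb in HT. With 1 library per line this difference was not tested. Of the 370 HT islands, 112 lay at 110 to 120 Mb of chromosome 11, and the HT cover without them was not taken.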

How the data were processed

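Per the submitters' processing notes, SICER and hg19 were used, and the file names record 150 bp windows, 450 bp gaps and 1E-7 as FDR. The authors deposited 1 island list per library with a whole-number score per island. The sources used here do not define this score and name no aligner, read filter, control or depth. File names of H3K27me3 lists bear a different normalization tag, so scores were not compared between lists. The 2 input samples were not used here. Starts were made 1-based, and width was end + 1 - start as deposited. Islands met if they shared at least 1 bp. An autosome ended at the last island of any list. Intervals are exact binomial. The overlap steps were tested on simulated islands. Analyses ran in Python 3.11.15 with scipy 1.17.1 and numpy 2.4.6. The domains, regions and settings were chosen with earlier results of these data known. Regions were named by rule: the 10 widest domains, the 5 highest and lowest in score per kb, the 5 widest of each class of cover, and the fullest windows of 10 Mb. Domains covered to 90% by H3K4me3 or HT H3K27me3 and the largest clusters were added later. Gene positions on hg19 were not used here, so domains were not assigned to genes.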

Additional observations from a re-analysis of the deposited data

Results flagged for a closer look

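The share of bases under H3K4me3 of the same line differed in direction between the lines. Broad minus narrower islands gave 0.466 percentage points in SUDHL6 (1.09% and 0.628%) and -0.272 in HT (0.449% and 0.722%). The difference between the lines was not tested, and without 2 domains of chromosome 19 the SUDHL6 value was -0.042.

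The share of islands in the outer 10 Mb also differed in direction. Broad minus narrower islands gave 7.09 percentage points in SUDHL6 (45.8% and 38.7%) and -5.63 in HT (11.4% and 17.0%). The SUDHL6 value turned to -1.34 with the outer 20 Mb and to -2.34 for domains of 20 kb or wider. Of the 370 HT islands of at least 10 kb, 112 lay at 110 to 120 Mb of chromosome 11. The HT value without that segment was not taken. The difference between the lines was not tested.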

How the results depend on the processing

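No paired analysis was possible because each line and antibody had 1 library. With 607 domains as the base, a width of at least 15 kb left 191 domains, 20 kb left 66, the 50% with the highest score per kb 303, and joining islands within 5 kb gave 1545. For these 4 settings the share in the top 10 windows was 59.7%, 74.2%, 63.0% and 28.7%. The share meeting EZH2 was 40.8%, 39.4% and 38.3% for the first 3. The share meeting HT H3K27me3 was 58.6% at 15 kb, 66.7% at 20 kb and 56.4% when joined. H3K4me3 was met by 7.26% of the 50% with the highest score per kb, and 36.4% of domains of 20 kb or wider lay in the outer 10 Mb. Without chromosome 6 the shares were 36.0% for EZH2, 54.2% for the outer 10 Mb and 38.9% for the top windows. With an overlap of at least 10% of the domain, H3K4me3 was met by 1.98% and HT H3K27me3 by 45.5%, and with the 50% of HT islands with the highest scores by 42.5%. The outer zone held 40.4% at 5 Mb and 53.2% at 20 Mb, and the top 10 windows of 20 Mb held 49.3%. The other 16 values stayed within the interval of the main value or within 1.5 times the count.

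Differences between broad and narrower islands were also taken under settings added after the data were seen. The outer share turned to -1.34 points in the outer 20 Mb and to -2.34 for domains of 20 kb or wider. H3K4me3 cover turned to -0.042 points without the 2 domains it covered and to -0.20 without chromosome 19. HT H3K27me3 cover, 0.494 points, turned to -0.861 without chromosome 6 and to -0.023 against islands of 5 to 10 kb. A further 4 values changed by more than 50% of their size in the same direction. EZH2 cover kept its direction in the 4 settings run, between 11.2 and 15.7 points. Unknown depth limits every statement on a missing island.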

Other observations

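Joining SUDHL6 H3K27me3 islands within 5 kb of each other showed longer stretches around the domains. The longest ran from 33756751 to 33974250 of chromosome 6 (217.5 kb) and held 9 domains among 12 islands. SUDHL6 EZH2 covered 10.2% and HT H3K27me3 38% of it. On chromosome 7, 2621851 to 2743950 (122.1 kb) held 3 domains among 11 islands, with 17.9% under EZH2 and 4.05% under HT H3K27me3. On chromosome 8, 142321501 to 142437600 (116.1 kb) held 4 domains among 12 islands, with 54.7% under EZH2, the highest share among the 10 longest stretches. Stretches from 43811551 to 43909200 (97.65 kb) and from 37477951 to 37571850 (93.9 kb) of chromosome 6 held no EZH2 island and had 22.9% and 28.6% under HT H3K27me3.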
